A study of Drosophila melanogaster with 6 samples.

Results

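Germ plasm and piRNA pathway genes are the genes that build the posterior cytoplasm from which germ cells form and the genes that make and use PIWI-interacting RNAs. The set was a list of 33 gene symbols chosen by function, with earlier results of these data known. A gene counted as measured where at least 1 probe set, the group of probes that reads a transcript, carried that symbol and no other, and its brightest probe set over the 6 arrays was used. Of the 33 genes, 30 were measured, out of 11982 genes with such a probe set on the array, and pgc, arx and egg were not analysed here. All 30 passed the filter on dim probe sets used below as an alternative.

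Drosophila melanogaster embryos 2 to 4 h old were collected at 25 °C, dechorionated and read on Affymetrix arrays, 1 array for each RNA pool, with 3 pools in each group. The brakeless embryos came from mothers of genotype FRT2R G13 bks278 over FRT2R G13 ovoD1 and from fathers that carried the same bks278 chromosome over the CyO balancer. The control embryos came from mothers with the unmutagenized FRT2R G13 chromosome over FRT2R G13 ovoD1, and their fathers carried FRT2R G13. In both crosses the dominant female-sterile ovoD1 blocks eggs from cells that keep it, so eggs come from germline clones made by recombination on chromosome arm 2R. The body of the mother, ovarian follicle cells included, is not selected in this way. The allele bks278 is described by the series as strong. Fathers of the brakeless cross were heterozygous, so its pools mixed embryos without any wild-type brakeless gene and embryos with the CyO copy. Pools hold whole embryos, so fewer germ cells and less RNA per cell cannot be told apart in any value below.

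As background, the mother loads germ plasm into the posterior pole of the egg, where Oskar recruits Vasa, Tudor and other proteins, and the cells that bud there, the pole cells, become the germ line. PIWI proteins carry short piRNAs that match transposons. In the cytoplasm they cut transposon RNA in a ring of granules around the nucleus called nuage, in a cycle known as ping-pong, and in the nucleus Piwi directs silencing of transposon loci. Most of these transcripts are made in the ovary and passed to the egg, so embryos of this age hold mainly what the mother deposited, at a time when many maternal transcripts are being cleared. Brakeless, the product of sbb, is a transcriptional co-regulator known for its part in segmentation.

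Levels are on a log2 scale, as the authors normalized them across the arrays, so a difference of 1 is a 2-fold change. The median probe set averaged 3.67. The brightest sbb probe set read 5.33, 4.45 and 4.61 in brakeless embryos and 6.01, 6.71 and 6.06 in control embryos, and the difference was -1.46 (SE 0.30) short of the threshold (limma adjusted p = 0.320). Further, dimmer sbb probe sets, near the median probe set, had differences of 0.11 (SE 0.20) and 0.08 (SE 0.17). Control replicate 3 stood apart. It lay at least 2 log2 units below the lowest of the other 5 arrays at 297 of 18769 probe sets (1.58%) and at least 2 above the highest at 2, and its mean correlation with the other arrays was 0.964, where the others had 0.979 to 0.986. Results that rest on this array are given with and without it.

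None of the 30 genes differed between brakeless and control embryos past the threshold, an adjusted p of 0.05 in limma's test fitted to all probe sets. Over all probe sets 0.139% passed it. The limma adjusted p was 0.651 for nxf2, 0.911 for fs(1)Yb and 0.998 for each of the others. At an unadjusted p under 0.05 there were 2 genes of the 30, nxf2 and fs(1)Yb, and 4.78% of all probe sets. In 3 genes, del, nxf2 and fs(1)Yb, the brakeless arrays did not overlap the control arrays, and over all probe sets this held for 10.1%. The log2 difference, brakeless minus control, was positive in 22 of the 30 genes and in 50.5% of all probe sets, and its median was 0.28, against 0.00 over all probe sets. Without control replicate 3 it was positive in 17 genes (57.1% of all probe sets), the median was 0.05, against 0.03 over all probe sets, and again no gene passed (0.176% of all probe sets did). The groups of 6 genes then did not overlap, and those of 20.8% of all probe sets.

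**Figure D1:**
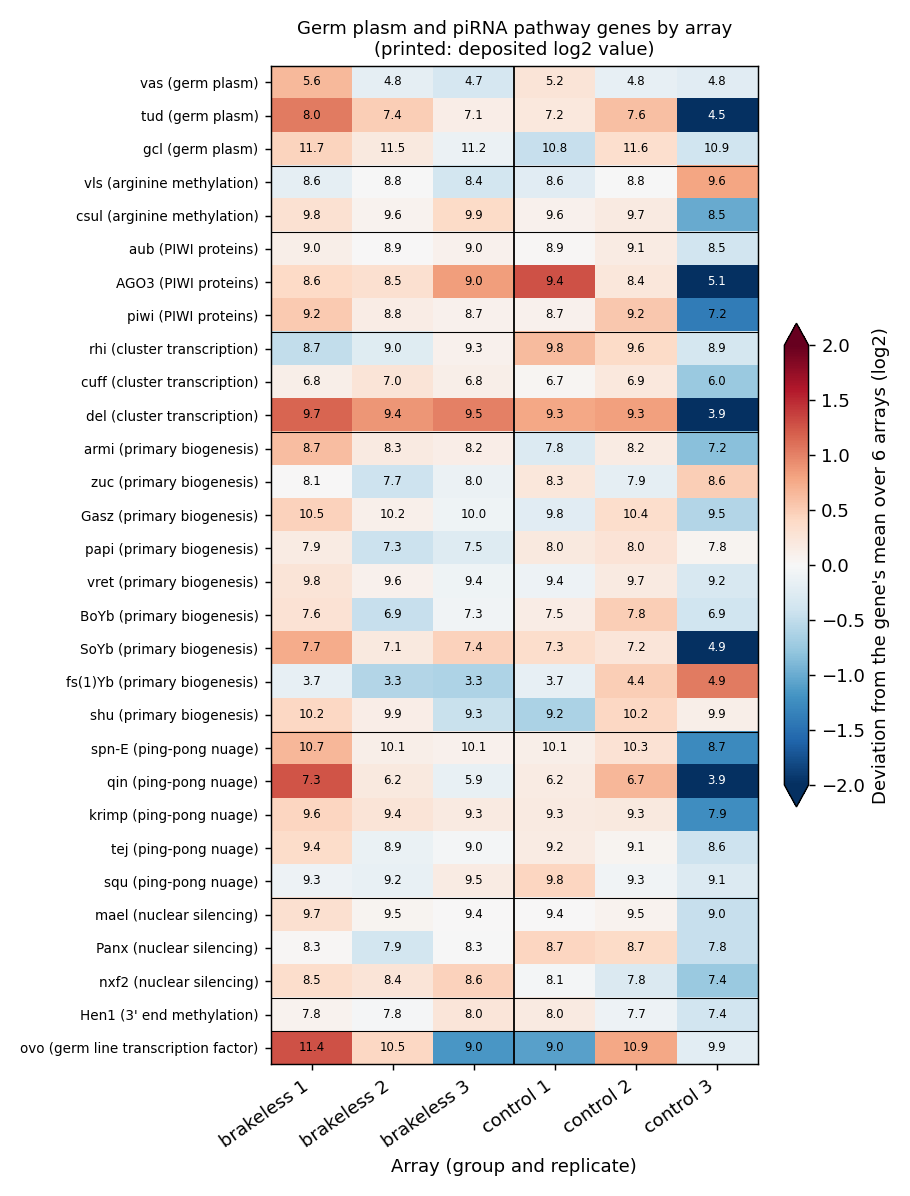
Heat map of the 30 measured genes (rows, with their role) in the 3 brakeless and 3 control arrays (columns). Colour gives the deviation from the gene's own mean over the 6 arrays on the log2 scale and the printed number is the deposited log2 value. Control replicate 3 is the lowest array for 20 of the 30 genes, with the darkest cells at del, AGO3, tud, SoYb and qin.

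Among the germ plasm genes, tud encodes Tudor, the large scaffold that binds methylated PIWI proteins in polar granules. It read 8.00, 7.44 and 7.09 in brakeless embryos, and 7.16, 7.56 and 4.48 in control embryos. The difference was 1.11 (SE 0.82, 95% interval -0.89 to 3.12), and without control replicate 3 it was 0.15 (interval -0.59 to 0.90). The gene gcl encodes Germ cell-less, which is needed to form pole cells. It was bright in both groups, at 11.70, 11.46 and 11.15 in brakeless and 10.80, 11.59 and 10.86 in control embryos, and the difference was 0.35 (SE 0.26), or 0.24 without control replicate 3. The groups overlapped.

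Vasa, the RNA helicase of germ plasm and nuage, was read by a dim probe set. The vas values were 5.63, 4.81 and 4.65 in brakeless embryos, and 5.25, 4.83 and 4.76 in control embryos, with a difference of 0.08 (interval -0.62 to 0.79), and of -0.01 without control replicate 3. A further probe set that the annotation assigns to both vas and wwk was left out by the rule. Where in the gene the vas probe set lies was not analysed here, so its level says little about the amount of vas transcript.

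Capsuléen, encoded by csul, and Valois, encoded by vls, form the complex that methylates arginines of PIWI proteins so that Tudor proteins can bind them. The 2 genes had differences of opposite sign. The csul values were 9.82, 9.59 and 9.89 in brakeless and 9.60, 9.69 and 8.50 in control embryos, and the difference was 0.50 (SE 0.33). The vls values were 8.63, 8.81 and 8.45 in brakeless and 8.58, 8.81 and 9.60 in control embryos, and the difference was -0.37 (SE 0.28). In both genes control replicate 3 was the array that stood out, low for csul and high for vls. Without it the differences were 0.12 for csul and -0.06 for vls.

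The 3 PIWI proteins were read well above the median probe set in most arrays. Aubergine, encoded by aub, is the cytoplasmic partner that cuts transposon RNA and also acts on maternal mRNAs in germ plasm. It was steady across the arrays, at 9.03, 8.91 and 8.99 in brakeless and 8.93, 9.07 and 8.52 in control embryos. Its difference was 0.13 (SE 0.16), and the 95% interval, -0.26 to 0.53, leaves out a 2-fold change in either direction. The aub difference was -0.03 without control replicate 3.

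AGO3, the ping-pong partner of Aubergine, varied far more among the control arrays. It read 8.55, 8.46 and 8.98 in brakeless embryos, against 9.42, 8.38 and 5.09 in control embryos. Control replicate 3 was thus 3.29 below the lowest other array, a 9.77-fold gap. The difference was 1.03 (SE 1.07, interval -1.59 to 3.65) over all arrays, and without control replicate 3 it had the opposite sign, -0.24 (interval -1.10 to 0.63). Piwi, the nuclear member, read 9.17, 8.80 and 8.73 in brakeless and 8.73, 9.19 and 7.25 in control embryos, with control replicate 3 again lowest. Its difference was 0.51 (SE 0.50), and -0.06 without that array.

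Rhino, Cutoff and Deadlock, encoded by rhi, cuff and del, form the complex that lets piRNA clusters in heterochromatin be transcribed from both strands. Their differences were of both signs. The gene del read 9.67, 9.38 and 9.50 in brakeless embryos, and 9.27, 9.32 and 3.85 in control embryos. The gap of control replicate 3 to the lowest other array, 5.43, was the widest of the 30 genes and left del close to the median probe set, where a level was not shown to be above background. The difference over all arrays, 2.04 (SE 1.48, interval -1.58 to 5.65), was the largest of the set, and without that array it was 0.22 (SE 0.13, interval -0.11 to 0.55). The lowest brakeless array, at 9.38, still lay above the highest remaining control array, at 9.32.

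For rhi, the HP1-family protein that marks the clusters, the values were 8.72, 8.97 and 9.30 in brakeless embryos and 9.85, 9.60 and 8.86 in control embryos. Control replicate 3 overlapped the brakeless arrays here. The difference was -0.44 (SE 0.29) over all arrays, and without control replicate 3 it was -0.73 (interval -1.24 to -0.22), which did not pass (limma adjusted p = 0.644, unadjusted p = 0.0136). Cutoff, a relative of decapping factors that protects cluster transcripts, had 6.82, 6.97 and 6.83 in brakeless and 6.74, 6.92 and 5.97 in control embryos, and the difference of 0.33 (SE 0.26) was 0.05 without control replicate 3.

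**Figure D2:**
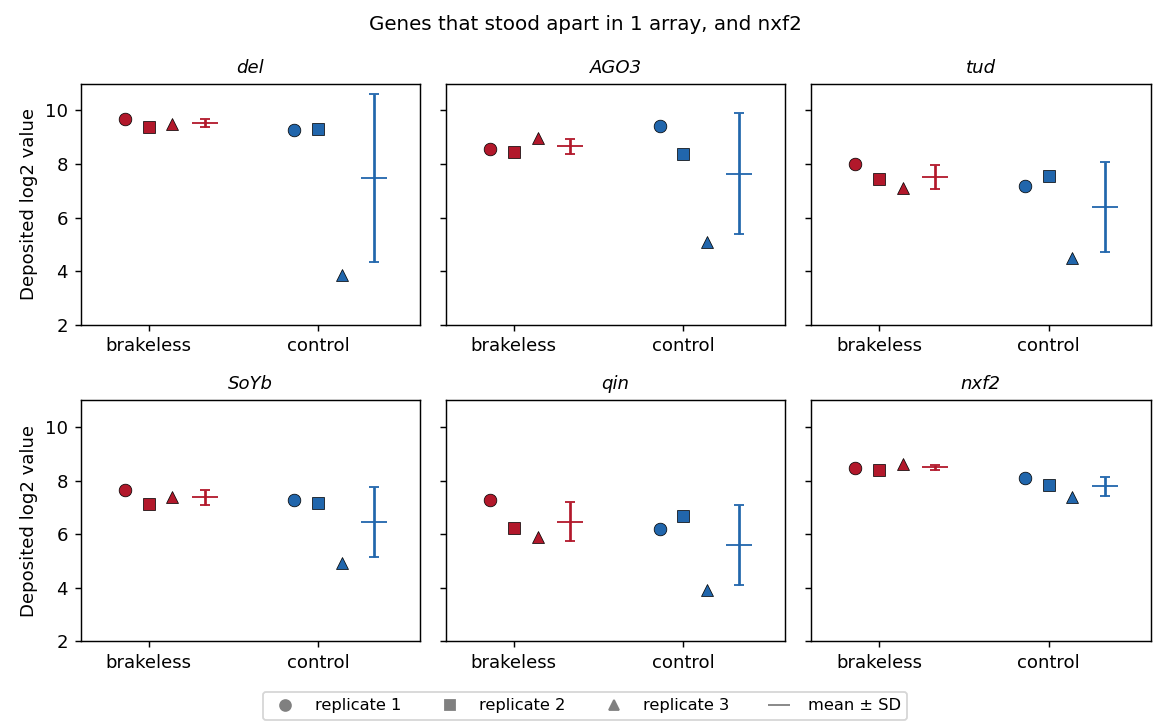
Deposited log2 values (vertical axis, the same in all panels) of 6 genes, with the 3 brakeless arrays left of the 3 control arrays, a marker shape for each replicate number, and the mean ± SD (n = 3 arrays) beside each group. Control replicate 3, the triangle among the controls, lies far below all other arrays for del (3.85), AGO3 (5.09), tud (4.48), SoYb (4.93) and qin (3.91), while in nxf2 all 3 brakeless arrays lie above all 3 control arrays.

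Primary biogenesis genes make piRNA precursors into mature piRNAs, in granules and on the outer membrane of mitochondria. Of the 9 measured, 5 had positive differences and none passed the test. Armitage, the RNA helicase encoded by armi, had the smallest p of those 5. It read 8.70, 8.26 and 8.22 in brakeless embryos, and 7.81, 8.24 and 7.25 in control embryos. The difference was 0.63 (SE 0.28, interval -0.06 to 1.31, limma unadjusted p = 0.0657). The groups overlapped through control replicate 2, and without control replicate 3 the difference was 0.37 (interval -0.17 to 0.91).

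The mitochondrial proteins of this step differed in sign. Zucchini, the nuclease encoded by zuc, read 8.10, 7.68 and 7.98 in brakeless and 8.33, 7.92 and 8.59 in control embryos, and the difference was -0.36 (SE 0.21). Gasz, a scaffold of the mitochondrial outer membrane, read 10.53, 10.18 and 9.98 in brakeless and 9.84, 10.43 and 9.48 in control embryos, and the difference was 0.31 (SE 0.27). Papi, a Tudor-domain protein at mitochondria, read 7.93, 7.33 and 7.51 in brakeless embryos, and 7.96, 8.03 and 7.82 in control embryos, and the difference was -0.35 (SE 0.18, interval -0.78 to 0.09). The papi groups overlapped only through brakeless replicate 1 and control replicate 3. The differences without control replicate 3 were -0.20 for zuc, 0.09 for Gasz and -0.41 for papi.

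The Yb family and its partners were next. Sister of Yb, encoded by SoYb, was low in a single array. Its values were 7.66, 7.11 and 7.37 in brakeless and 7.27, 7.16 and 4.93 in control embryos. The difference was 0.93 (SE 0.64) over all arrays and 0.17 (interval -0.30 to 0.64) without control replicate 3. Its relative BoYb showed no such drop, at 7.63, 6.88 and 7.26 in brakeless and 7.48, 7.83 and 6.94 in control embryos, and the difference was -0.16 (SE 0.29), or -0.40 without control replicate 3.

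The third family member, fs(1)Yb, is known from ovarian somatic cells, where it gathers piRNA precursors. It read 3.70, 3.29 and 3.26 in brakeless embryos, and 3.70, 4.37 and 4.91 in control embryos. The difference was -0.91 (SE 0.32, interval -1.69 to -0.13, limma unadjusted p = 0.0284, adjusted p = 0.911). The arrays did not overlap, but brakeless replicate 1 and control replicate 1 both rounded to 3.70, and these and the other brakeless values lay near the median probe set, where a level was not shown to be above background. Control replicate 3 was the highest array, and the difference without it was -0.62 (limma unadjusted p = 0.0534).

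The groups of the other 2 genes of this step overlapped. Vreteno, a Tudor-domain protein encoded by vret, lay between 9.45 and 9.79 in brakeless and between 9.21 and 9.71 in control embryos, and the difference was 0.17 (SE 0.17). The co-chaperone Shutdown, encoded by shu, which loads PIWI proteins, lay between 9.35 and 10.20 in brakeless and between 9.16 and 10.20 in control embryos, and the difference was 0.07 (SE 0.34), whose sign turned when some arrays were left out (-0.23 to 0.31). With control replicate 3 left out the differences were 0.05 for vret and 0.14 for shu.

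Of the 5 genes of ping-pong nuage, 4 had positive differences, and control replicate 3 was the lowest array in all 5. Spindle-E, an RNA helicase encoded by spn-E, read 10.66, 10.11 and 10.07 in brakeless and 10.11, 10.28 and 8.72 in control embryos, and the difference was 0.58 (SE 0.44). Krimper, encoded by krimp, which brings AGO3 and Aubergine together, read 9.59, 9.42 and 9.33 in brakeless and 9.33, 9.35 and 7.92 in control embryos, and the difference was 0.59 (SE 0.40). Without control replicate 3 these were 0.09 for spn-E and 0.11 for krimp.

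Qin, a Tudor-domain protein that keeps ping-pong between unlike partners, read 7.28, 6.22 and 5.88 in brakeless embryos and 6.20, 6.69 and 3.91 in control embryos. The difference was 0.86 (SE 0.78), and 0.01 (interval -1.09 to 1.12) without control replicate 3. A second, dim qin probe set averaged 3.31 ± 0.14 over brakeless arrays and 3.22 ± 0.16 over control arrays (SD, n = 3 each), and control replicate 3 read 3.29 on it. Tejas, a Tudor-domain protein encoded by tej, lay between 8.88 and 9.38 in brakeless and between 8.60 and 9.17 in control embryos, and the difference was 0.13 (SE 0.21). Squash, a nuage protein encoded by squ, lay between 9.23 and 9.54 in brakeless and between 9.11 and 9.81 in control embryos, and the difference was -0.07 (SE 0.21). Leaving out control replicate 3 gave -0.04 for tej and -0.21 for squ.

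Nuclear silencing genes act after Piwi has found its target RNA. Nxf2, a relative of mRNA export factors that works with Panoramix to silence transposon loci, had the smallest p of the 30 genes. It lies on 3L at 16576859 to 16580306 (Release 6 plus ISO1 MT). It read 8.48, 8.39 and 8.60 in brakeless embryos, and 8.10, 7.84 and 7.40 in control embryos. All 3 brakeless arrays lay above all 3 control arrays, and the difference was 0.71 (SE 0.20, interval 0.24 to 1.19), or 1.64-fold. This fell short of the threshold (limma unadjusted p = 0.0106, adjusted p = 0.651). With any 1 array left out the nxf2 difference ran from 0.52 to 0.88, the lowest being without control replicate 3 (0.52, SE 0.14, limma adjusted p = 0.616).

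Panoramix itself, encoded by Panx, had a difference of the other sign. It read 8.30, 7.92 and 8.27 in brakeless and 8.72, 8.67 and 7.82 in control embryos, and the difference was -0.24 (SE 0.27). Without control replicate 3, the lowest of its arrays, the difference was -0.53 (interval -0.92 to -0.14, limma unadjusted p = 0.0168, adjusted p = 0.694). Maelstrom, encoded by mael, which acts late in this step and also in nuage, lay between 9.42 and 9.73 in brakeless and between 8.96 and 9.49 in control embryos, and the difference was 0.25 (SE 0.18), or 0.09 without control replicate 3.

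Hen1, the enzyme that methylates the ends of piRNAs, lay between 7.76 and 8.02 in brakeless and between 7.40 and 7.95 in control embryos, and the difference was 0.20 (SE 0.17), or 0.06 without control replicate 3. The zinc-finger factor Ovo, which drives germ line transcription in females and has a separate role in the epidermis, varied most within the brakeless group. It read 11.40, 10.54 and 8.96 in brakeless and 9.04, 10.90 and 9.92 in control embryos, and the SD was 1.23 in brakeless and 0.93 in control arrays. The difference of 0.35 (interval -1.44 to 2.13) was small beside that spread, and without control replicate 3 it was 0.33.

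**Figure D3:**
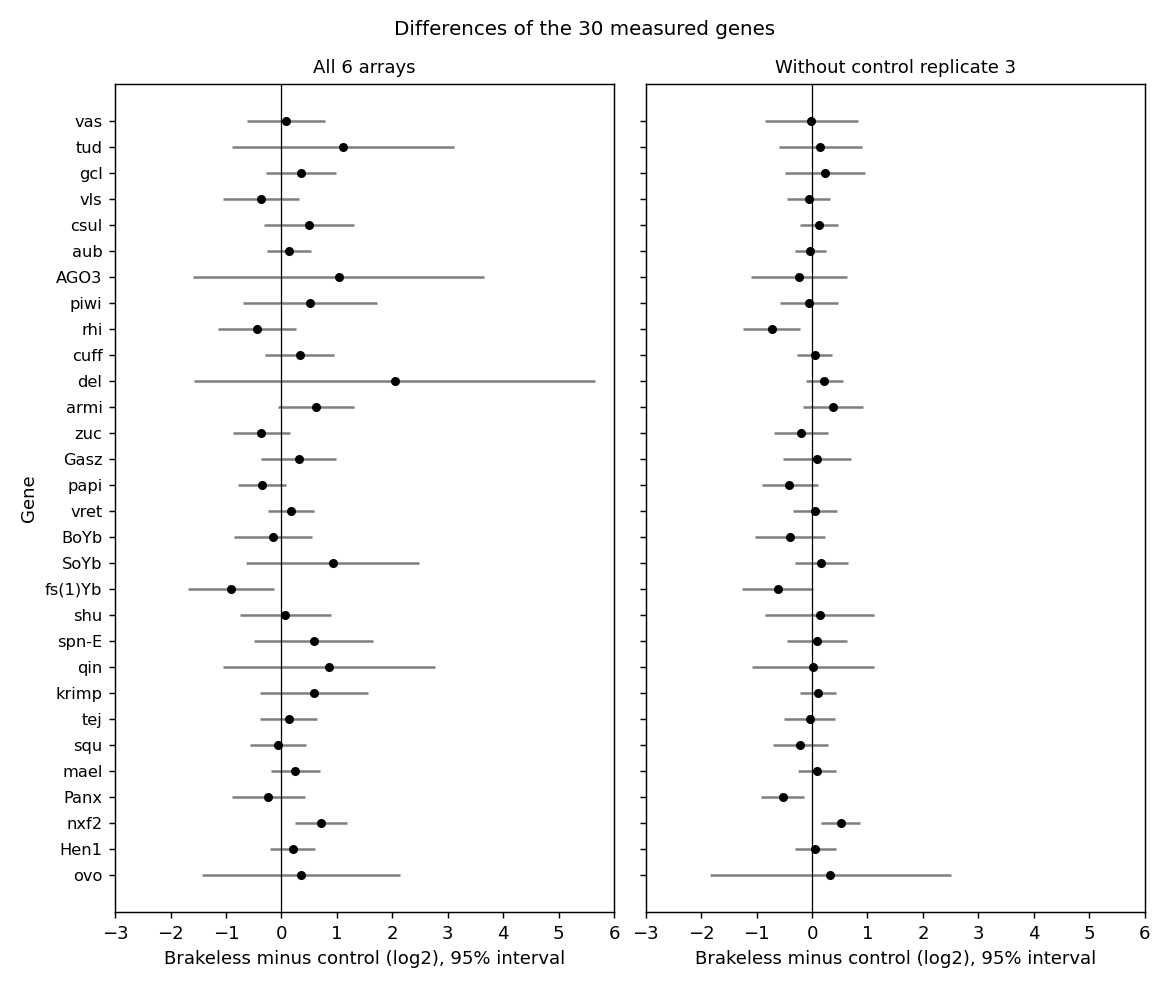
Log2 difference, brakeless minus control, of the 30 genes (points) with the 95% interval of limma's fit (lines), for all 6 arrays on the left and without control replicate 3 on the right, on the same horizontal scale. The widest intervals, at del, AGO3 and tud, shrink without that array and their points move towards 0, while nxf2 stays right of 0 (0.71 and 0.52).

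Across the set, the spread was widest in the control group. Control replicate 3 was the lowest of the 6 arrays for 20 of the 30 genes, against 17.3% of all probe sets. It lay at least 1 log2 unit below the lowest other array in 9 of them (3.94% of all probe sets). It lay at least 2 below in 4, del, AGO3, tud and SoYb (1.58% of all probe sets). Over all genes, 1 probe set each, it was lowest in 19.9%, at least 1 below in 4.85% and 2 below in 1.85%. Dim probe sets have little room to fall, since the lowest deposited value was 1.98 and the median probe set averaged 3.67. The gene just short of 2 was qin, at 1.97, after SoYb at 2.18. In the same array 3 genes of the set were at their highest, vls, zuc and fs(1)Yb, against 31.4% of all probe sets. The 9 genes with a gap of at least 1 came from most steps of the pathway: tud of germ plasm, csul of arginine methylation, AGO3 and piwi of the PIWI proteins, del of cluster transcription, SoYb of biogenesis, and spn-E, krimp and qin of nuage. No other array held a gap of 2 for any gene of the set. These 9 genes and the thresholds were picked after their values were seen. The median SD over the 30 genes was 0.25 in brakeless and 0.50 in control arrays. It was 0.16 and 0.20 over all probe sets, and 0.18 and 0.25 over all genes, 1 probe set each. The median gap between control replicates 1 and 2 was 0.28, against 0.20 over all probe sets and 0.24 over all genes.

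RNA quality controls on the array gave no larger loss toward 5′ ends in control replicate 3. The log2 excess of the 3′ over the 5′ control probe set was 1.42 for actin in that array, within the 1.29 to 1.82 of the others. For eIF-4a it was 2.05 (2.18 to 2.48 in the others) and for GAPDH 1.04 (1.07 to 1.24 in the others).

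Other genes of the pathway, from a list of partners, cofactors and export factors, also had differences of both signs. Of 29 listed, 26 were measured, and none passed limma's test (2 had an unadjusted p under 0.05, as did 4.78% of all probe sets). The difference was positive in 17 of them (50.5% of all probe sets) and its median was 0.19. The smallest p belonged to moon, encoding Moonshiner, the factor that starts transcription at Rhino-bound clusters. It read 8.77, 8.66 and 8.80 in brakeless embryos, and 8.10, 6.95 and 8.16 in control embryos. The difference was 1.01 (SE 0.33, limma unadjusted p = 0.0228, adjusted p = 0.839). The brakeless arrays lay above all control arrays, control replicate 2 was the low one, and without control replicate 3 the difference was 1.22. The nuclear pore genes Nup154 and Nup358, needed for piRNA production at some loci, had differences of 0.47 (SE 0.16) and 0.58 (SE 0.26). Their groups did not overlap either. This held for 4 of the 26 genes, all with brakeless above control, and for 10.1% of all probe sets. The differences were 0.34 for Nup154 and 0.35 for Nup358 without control replicate 3. In control replicate 3 the Tudor-domain gene Veneno, named after its values were seen, read 6.81, 2.73 below the lowest other array. The Veneno groups did not overlap, and the difference was 1.08, or 0.16 without that array.

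Among other germ plasm and pole cell genes, 24 of 31 were measured. None passed limma's test (1 had an unadjusted p under 0.05, as did 4.78% of all probe sets). The difference was positive in 18 of these genes (50.5% of all probe sets) and its median was 0.29. Those with the smallest p were bgcn, a regulator of germ cell differentiation, at -0.55 (SE 0.20), zpg, a germ line gap junction gene, at 0.56 (SE 0.24), and Jabba, a lipid droplet anchor of histones, at 0.30 (SE 0.15). They were -0.42, 0.33 and 0.30 without control replicate 3. The bgcn values lay near the median probe set. In control replicate 3 the germ granule and translation control gene me31B read 9.81 and stau, which carries osk RNA to the posterior, read 4.70, which were 2.99 and 2.52 below the lowest other array. Both were named after their values were seen. Without control replicate 3 the median of the 2 lists was 0.11 for the other piRNA genes and 0.13 for the other germ plasm genes.

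Marker lists of embryo age and of other tissues were read in the same arrays. As the mean deviation of a list from its own average, the 30 genes stood at 0.38, 0.05 and 0.02 in the brakeless arrays and at 0.09, 0.26 and -0.80 in the control arrays. Cleared maternal transcripts (18 of 22 measured) stood at 0.29, 0.12 and -0.02 in brakeless and at -0.08, 0.14 and -0.44 in control arrays. The highest and lowest arrays were thus the same as for the 30 genes. Some genes of this list, osk and stau among them, were also in the list of other germ plasm and pole cell genes. Early zygotic genes (21 of 24) stood at -0.32, -0.20 and 0.29 in brakeless and at 0.42, 0.28 and -0.47 in control arrays, so both the maternal and the zygotic list were lowest in control replicate 3. Muscle genes of older embryos (10 of 14) stood at -1.50, -0.27 and 0.68 in brakeless and at 0.59, 1.13 and -0.63 in control arrays. The difference was positive in 13 of the 18 maternal genes, and negative in 14 of the 21 zygotic and all 10 muscle genes. Over all probe sets 50.5% were positive. Median differences were 0.33 for the maternal, -0.17 for the zygotic and -0.73 for the muscle list. Without control replicate 3 they were 0.12, -0.42 and -1.30. The part of embryo age in the differences was not tested.

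**Figure D4:**
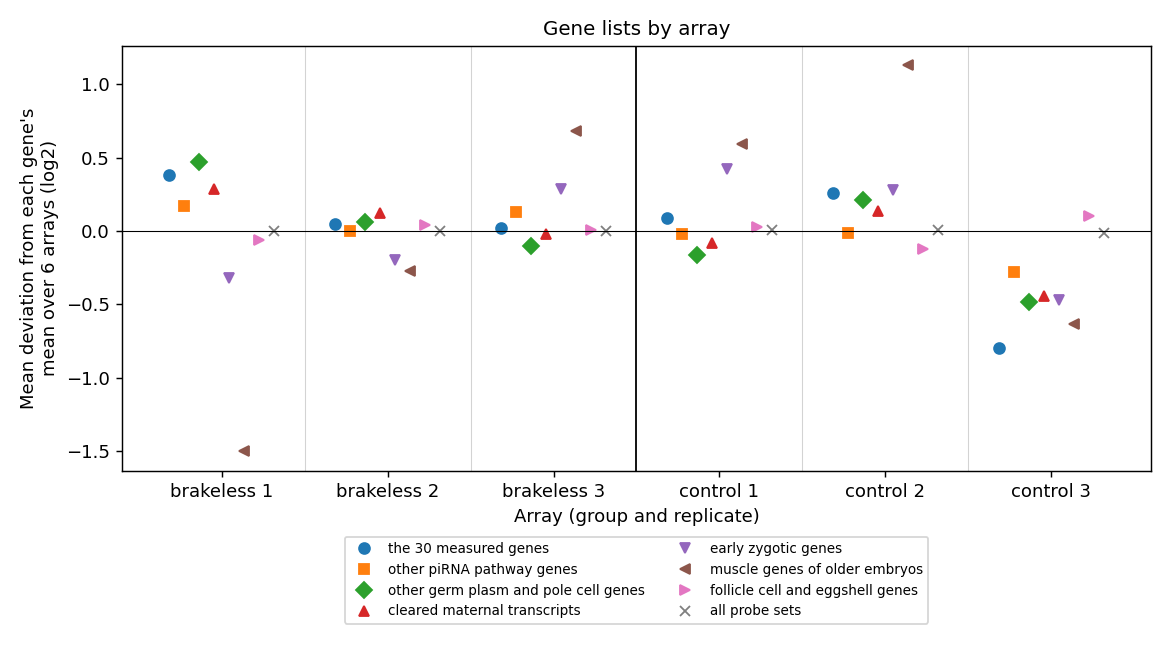
Mean deviation of each gene list (markers) from its own mean over the 6 arrays, on the log2 scale, in the 3 brakeless arrays left of the 3 control arrays. The 30 genes (blue circles) range from 0.38 in brakeless replicate 1 to -0.80 in control replicate 3, all probe sets stay within 0.01 of 0, and muscle genes span the widest range, -1.50 to 1.13.

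Other cell types were read the same way. Follicle cell and eggshell genes (18 of 21), the markers of ovarian soma, deviated by at most 0.12 in any array. Testis genes (16 of 16) stayed within 0.09, and the 4 housekeeping genes that were measured stood at 0.21 in control replicate 3. Neuron genes (8 of 10) ran from -0.20 to 0.31, and hemocyte, trachea and cuticle genes (11 of 12) from -0.48 to 0.55. In control replicate 3, where the 30 genes stood at -0.80, the eggshell list stood at 0.10 and the testis list at 0.02. The levels of these lists are not given here, and dim probe sets have little room to fall. The median SD of the eggshell list was 0.12 in both groups, and that of the testis list 0.09 in brakeless and 0.12 in control arrays. Over all probe sets it was 0.16 and 0.20. No gene of the marker lists passed limma's test over all 6 arrays. In that test 2 testis genes, 1 gene of the hemocyte list and 3 early zygotic genes had an unadjusted p under 0.05. Over all probe sets 4.78% did. Without control replicate 3 the testis gene bol passed, with a difference of -1.27 (limma adjusted p = 0.0435), as did 0.176% of all probe sets.

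By position, 11 of the 30 genes lie on 2R, the arm made homozygous in the clones, and the others on 2L (9), 3L (5), 3R (3) and X (2). The median difference was 0.31 on 2R and 0.25 elsewhere, and without control replicate 3 it was 0.09 on 2R and -0.01 elsewhere. The nearest to sbb, which lies at 18278198 to 18357296, was rhi at 17628491 to 17633516, 0.645 Mb away (Release 6 plus ISO1 MT). The next were csul at 2.01 Mb and krimp at 2.04 Mb, with differences of 0.50 and 0.59, against -0.44 for rhi.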

How the data were processed

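The log2 values were deposited by the authors after RMA, per the submitters' processing notes. RMA removes background, equalizes the intensity distributions of the arrays and sums up the probes of a set. It compresses differences near background and hides a change in total RNA. Its settings were not found in the labels. Of 18952 probe sets, 183 Affymetrix controls were left out, and of the 18769 tested, 13647 had 1 gene symbol in the platform annotation, 402 several and 4720 none. Positions are those of RefSeq, Release 6 plus ISO1 MT, found by gene number, and for vas by symbol.

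Differences were fitted in R 4.3.3 by limma 3.58.1, with lmFit, eBayes and no covariate. Tests were two-sided and Benjamini-Hochberg adjustment ran over the 18769 probe sets. The fit was tested on simulated data with the same spread in both groups and no outlying array. That test therefore does not cover an array like control replicate 3. Arrays carry no read depth, so their number limits the precision. The labels call the arrays biological replicates without saying how pools were collected, so p-values measure the spread between these arrays. Replicate numbers come from the titles, and the description of control replicate 3 carries another number.

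All 33 genes are named, and up to 3 genes with the smallest p of another list. The members and lists were chosen with earlier results of these data known. Alternatives were trend and robust priors, a second quantile normalization, median centring, a filter at the 40th percentile, array weights, the replicate number as a block, the mean of a gene's probe sets and each array left out.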

Additional observations from a re-analysis of the deposited data

How the results depend on the processing

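None of the 30 genes, and none of the other piRNA or germ plasm genes, passed limma's test under any of the 7 other settings or with any array left out. The number of probe sets called over the whole array was 26, and it was 46 with trend and robust priors, 74 with array weights, 0 with the replicate block and from 0 to 33 with 1 array left out: 0 without brakeless replicate 1 or 2 or without control replicate 2, 6 without brakeless replicate 3 and 8 without control replicate 1. Deviations from the group means correlated at -0.398, -0.232 and -0.319 between arrays with the same number, for replicates 1, 2 and 3. Pairs with unlike numbers ran from -0.287 (brakeless 2 with control 1) to 0.553 (brakeless 3 with control 1). Deviations sum to 0 within a group, so these correlations depend on one another. Whether arrays were paired was not tested. The replicate block changed no call of the 30 genes.

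The median difference of the 30 genes, 0.28, ran from 0.05 (without control replicate 3) to 0.44 (without control replicate 2), with 0.16 without brakeless replicate 1. It was 0.06 with medians of the arrays of a group, a setting chosen after seeing the data. The number of positive differences ran from 17 to 23. The 3 genes whose groups did not overlap (10.1% of all probe sets) became 5 after quantile normalization again (11.1%) and 2 after median centring (11.3%). With an array left out, where fewer arrays overlap less often, they were 4 to 12: 12 without control replicate 2 (23.8% of all probe sets), 6 without control replicate 1 (18.0%) or 3 (20.8%), 5 without brakeless replicate 2 (16.1%) or 3 (19.4%) and 4 without brakeless replicate 1 (18.0%).

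Array weights turned the sign of vas (-0.11) and tej (-0.06). Leaving out an array turned signs in 9 genes, whose differences then ran from -0.22 to 0.28 for vas, -0.03 to 0.25 for aub, -0.24 to 1.93 for AGO3, -0.06 to 0.92 for piwi, -0.40 to 0.05 for BoYb, -0.23 to 0.31 for shu, -0.04 to 0.24 for tej, -0.21 to 0.13 for squ and -0.20 to 1.02 for ovo. The cause was not tested. The vas and bgcn probe sets, and fs(1)Yb in brakeless embryos, are dim, which limits what their differences show.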
